A study of Helianthus annuus with 142 samples.

Results

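Leaf RNA of 8 parental lines of sunflower, Helianthus annuus, was compared by the place a line takes in the names of its hybrids. SF009, SF092, SF109 and SF193 are named first in every hybrid (24 libraries), and SF279, SF317, SF326 and SF342 are named second (22 libraries). The members were chosen as the columns of the count table that carry 1 line name, and 1 library, SF326 stress replicate 3, was left out because its genes spoke against its label. That left 45 of the 142 libraries of the study, each from its own plant. The other 96 libraries belong to the 16 hybrids, which hold every combination of a first-named and a second-named line and were used here only as a scale and for comparison.

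Stressed plants stopped receiving water and, per the labels, were cut at an FTSW of 0.1, the fraction of the soil water a plant can draw on that is still in the pot. For control plants the labels give an FTSW of 1. The groups were therefore stressed plants of 4 first-named lines (12 libraries) and of 4 second-named lines (11 libraries), and control plants of the same lines (12 and 10 libraries). Each line had 3 plants per water level, except SF326 with 2 stressed plants left and SF342 with 1 control plant.

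Breeders make sunflower hybrids by crossing a male-sterile seed parent with a pollen parent that restores fertility, and the lines for these roles are usually bred apart in separate pools. Male sterility of this kind is carried by the mitochondria, and a plant takes its mitochondria and plastids from the seed parent alone. Genes that an inbred line has lost, or carries in a form that is not transcribed, appear in RNA as genes that are on in some lines and off in others, and a hybrid usually shows such a gene at a level between its parents. The labels do not say which side supplied the seed parent, so the sides are called first-named and second-named here.

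The question was whether the sides differ as sides. Each line was therefore given the same weight, its plants were summed to 1 value per water level, and the difference between the sides was judged against the spread over the 4 lines of a side. Levels are in CPM, counts scaled to a common library total with factors from the trimmed mean of M-values (TMM), and are compared between lines for 1 gene, never between genes. The deposited identifiers are not paired with gene names, so neither leaf markers nor gene functions could be looked up, and positions are as deposited, on a genome build that no source used here states.

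Depth and labels were checked first. Plant libraries of the lines held 2796719 to 13765614 counts, and the sums per line and water level ran up to 29731590, with the lowest, 7390146, in SF342 control. Over 7100 genes that are clearly on in some lines and off in others, the plants of SF092, SF109, SF193, SF279, SF317, SF326 and SF342 shared 93.7% to 98.7% of states with their own line. The 6 plants of SF009 shared only 82.0% to 87.5% with their line and up to 75.9% with SF092, and the library left out, labelled SF326, shared 55.8% with SF326 and 77.5% with SF317. SF092 and SF326, which stand on opposite sides, shared up to 80.6% of states. The hybrids SF009_SF279 and SF092_SF317 also held plants whose labels are in doubt, described below with the genes that raise the doubt. Counts of genes and the main differences are given below with and without these lines and plants where they move.

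Almost no gene set the first-named lines apart from the second-named ones. In stressed plants 7 of 34111 tested genes were higher in first-named lines and 0 were lower (edgeR quasi-likelihood F-test on line sums, 4 against 4, adjusted p under 0.05; 0.0205% of the genes tested). In control plants 3 were higher (0.00879%) and 1 was lower (0.00293%), together 0.0117%. At an unadjusted p under 0.05, 734 were higher and 473 lower in stressed plants (3.54% of genes tested for both directions), and 758 were higher and 390 lower in control plants (3.37%). Both shares lie below 0.05, the share that evenly spread p-values would give. The differences were not small: 12.6% of the tested genes differed more than 2-fold between the fitted means of the sides, at either water level. Few of these passed the test, which judges them against the spread over the lines of a side. For the 0 genes lower under stress, DESeq2 called 39 and limma-trend 4. DESeq2 on the same sums called 216 genes in stressed plants and 154 in control plants, but edgeR depended on single lines. In stressed plants it called 0 genes without SF009, SF109 or SF342, 1 higher gene without SF279, and 4 higher genes without SF193. Without SF092 it called 16 higher and 6 lower genes, without SF092 and SF326 0 higher and 1 lower, and without SF009 and SF092 4 higher and 6 lower. With the doubted SF326 library put back 1 gene was higher. In control plants it called 0 without SF009, SF109 or SF317, 1 higher gene without SF193, 1 higher and 1 lower without SF279, and 3 higher and 5 lower without SF092. Without SF092 and SF326 7 were higher and 6 lower there, and without SF009 and SF092 0 were higher and 1 lower. Higher genes did not outnumber lower ones in every one of these settings.

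Lines of opposite sides differed from each other no more than lines of the same side. A pair of lines from opposite sides differed by a mean of 1926 genes on in 1 line and off in the other (16 pairs, 757 to 2515), against 1940 for a pair from the same side (12 pairs, 1136 to 2308). A gene counts as on at a median of at least 1 CPM over the plants of a line and as off under 0.1 CPM. The root mean square log2 difference per pair, over all tested genes, averaged 1.21 between sides and 1.21 within sides. The closest pair lay across the sides: SF092 and SF326 differed by 757 genes, of which 741 were on in SF092 alone and 16 in SF326 alone. Next came SF009 and SF092, both first-named, with 1136 genes.

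**Figure D1:**
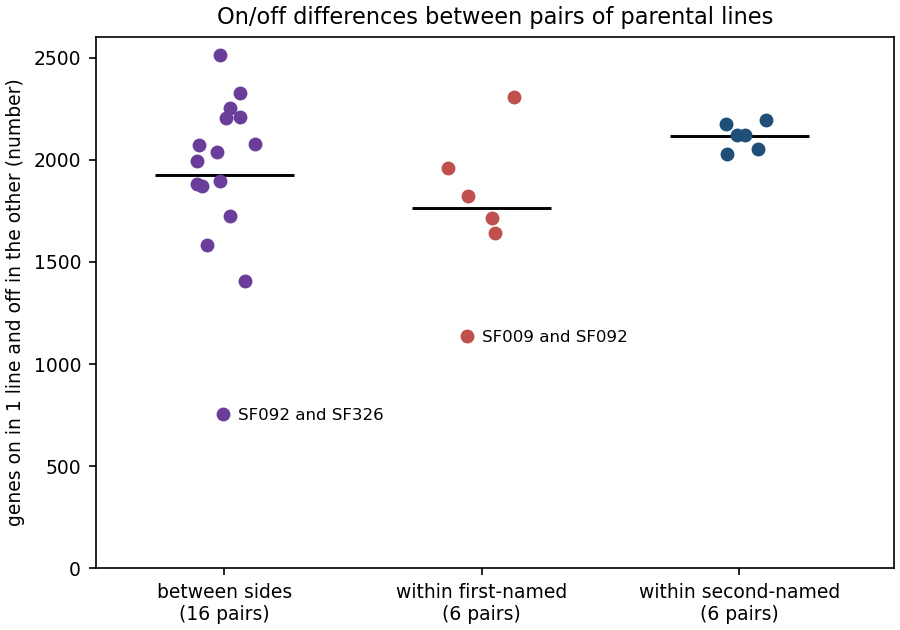
Number of genes on in 1 line and off in the other for each pair of the 8 lines, with pairs between sides at the left and pairs within the first-named and within the second-named side to their right; points are pairs and bars are means. The 16 pairs between sides span 757 to 2515 genes and cover the range of the pairs within sides, and SF092 with SF326 is the lowest pair.

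The 6 pairs of first-named lines differed by a mean of 1764 genes (1136 to 2308), against 2116 for the 6 pairs of second-named lines (2030 to 2193). The ranges overlapped, with SF109 and SF193 at 2308, above every second-named pair. Without SF009 the first-named pairs averaged 2030 genes. No test was made, since pairs share lines. Without the pair of SF092 and SF326, pairs across the sides averaged 2004 genes, above the 1940 within sides. The order changed with the lines left out. Without SF326 the means were 2024 between sides and 1897 within, and without SF092 and SF326 2059 and 2026. Without SF009 and SF092 they were 2213 and 2143. The mean between sides was also the higher without SF317 or SF342. It was the lower without SF009 (2019 and 2087), SF092, SF109, SF193 or SF279. The number of genes on in a line was 27341 in SF009, 27329 in SF092, 26212 in SF109 and 27134 in SF193, against 25975 in SF279, 26440 in SF317, 26346 in SF326 and 26757 in SF342. SF109 fell within the range of the second-named lines and the other first-named lines lay above it.

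The spread over lines gave the same picture gene by gene. The side takes 1 of the 7 degrees of freedom between 8 lines, which is 14.3% of them. Of the summed variance of log2 levels between lines, 14.8% lay between the sides in stressed plants and 14.2% in control plants. Among single genes the median share was 7.41% in stressed plants and 7.87% in control plants. Shares of single genes are skewed, so their median is not to be set against the 14.3%.

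Genes that are switched fully on or off split the lines in many ways. Of 2502 genes that are clearly on or off in each of the 8 lines and vary among them, 277 were on in 1 first-named line and no other line, and 143 in 1 second-named line and no other. A further 704 were off in 1 line alone, so that 1124 of the 2502 (44.9%) set 1 line apart from the other 7. In 233 genes exactly 4 lines were on, and 118 of them were on in 2 lines of each side. Many choices of lines make that mixed split, so its count is not comparable with that of the split by side. By side, 9 genes were on in all 4 first-named lines and off in all 4 second-named lines, and 0 genes showed the reverse. Fewer lines make such a split easier: without SF009 it was 17 and 0 genes, without SF092 27 and 2, without SF326 30 and 2, and without both SF092 and SF326 49 and 8. Only gene models in the count table could be counted. Whether the reads of some lines match these models less well, and so count as off, was not tested.

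Of these 9 genes, 6 lie on chromosome 10, between positions 99875592 and 240020631, and 1 each lies on chromosomes 1, 8 and 13. Without SF326 chromosome 10 held 7 of the 30 genes, and without SF009 8 of the 17. Together they had 12986 counts in the 24 first-named libraries and 17 counts in the 21 second-named libraries. Each of the 9 was counted in all 24 first-named plants. The 9 were chosen by medians over these same plants, so the counts describe them and are no separate support. In second-named lines a gene had between 0 and 5 counts over all plants. The gene on chromosome 8 (30553171 to 30556310, minus strand) had a mean of 22.8 CPM in first-named lines and 0.0389 CPM in second-named lines. A gene on chromosome 10 (160321694 to 160331371) reached 18.0 CPM in first-named lines, with line medians of 8.75 CPM in SF009, 3.29 in SF092, 29.6 in SF109 and 30.4 in SF193, and 0.0259 CPM in second-named lines. The other 7 averaged between 2.29 and 7.77 CPM in first-named lines.

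The rule by itself places these 9 genes among the 741 that SF092 has on and SF326 has off. Chromosome 10 held 13.3% of the 757 genes that differ between SF092 and SF326, 101 genes, compared with 7.11% of the tested genes.

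The 16 hybrids show what becomes of such genes when the sides are joined. The mean of the hybrids was 46.1% to 121% of the mean of the first-named lines over the 9 genes, with a median of 57.3%. All 9 genes were counted in 84 of 90 plants of 15 hybrids. Some plants had counts for few of these genes, although their labels name a first-named parent. Of the 6 plants labelled SF009_SF279, 5 had counts for only 3 or 4 of the 9 genes, and control replicate 1 had counts for all 9. The plant labelled SF092_SF317 stress replicate 3 had counts for 0 of the 9. The labels of these plants are in doubt, and all 6 libraries labelled SF009_SF279 are treated as doubted below. Without these 7 libraries the hybrids stood at 46.5% to 130% of the first-named mean, with a median of 61.5%. The plants were doubted for lacking these same genes, so a higher level without them follows from that choice. SF109_SF317 control replicate 3 and SF109_SF326 control replicate 1 had counts for 5 of the 9 genes. They were kept in all values here.

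The genes past the threshold were few enough to follow one by one. HanXRQChr01g0012651, a minus-strand gene model of 177 bp (chromosome 1, 78357775 to 78357951), was called at both water levels. Stressed plants had 51.3, 52.4, 52.3 and 39.8 CPM in SF009, SF092, SF109 and SF193, against 2.51, 1.12, 2.86 and 1.34 CPM in SF279, SF317, SF326 and SF342. Every first-named line lay far above every second-named line, with side means of 49.0 ± 6.10 and 1.96 ± 0.856 CPM (SD, n = 4 lines each). The log2 difference was 4.65 (SE 0.34, edgeR adjusted p = 0.0118). Control plants had 57.5, 36.6, 53.7 and 48.5 CPM in the first-named lines, against 2.67, 1.95, 3.59 and 0.977 CPM in the second-named lines in the same order, a log2 difference of 4.39 (SE 0.39, edgeR adjusted p = 0.0392).

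The hybrids did not lie between the sides for this gene. Their mean was 1.83 CPM in stressed plants, with a range over 16 hybrids of 0.712 to 3.13, and 2.37 CPM in control plants, with a range of 1.15 to 4.24. Each hybrid has a first-named parent, yet all 16 lay beside the second-named lines and far below every first-named line. Drought did not move the gene past the threshold in first-named lines (log2 change 0.01, edgeR adjusted p = 0.985).

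HanXRQChr14g0453561, a minus-strand model of 2235 bp (chromosome 14, 151372494 to 151374728), was the other gene called at both levels. Stressed plants had 18.2, 13.9, 22.5 and 25.8 CPM in first-named lines, against 0.730, 1.12, 1.25 and 0.814 CPM in second-named lines. Control plants had 17.6, 16.7, 24.3 and 22.1 CPM in first-named lines, against 0.939, 0.996, 1.101 and 0.279 CPM in second-named lines. The sides were far apart in both, with log2 differences of 4.36 in stressed plants (SE 0.31, edgeR adjusted p = 0.0118) and 4.55 in control plants (SE 0.40, edgeR adjusted p = 0.0392). Here the hybrids did lie between the sides, at 11.2 CPM in stressed plants and 15.6 CPM in control plants. The lowest of them under stress was the doubted SF009_SF279 with 0.877 CPM, at the level of the second-named lines, and the next hybrid had 8.89 CPM. With the doubted library of SF326 put back, the stress difference of the gene was 2.97 and was no longer called (edgeR adjusted p = 1).

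HanXRQChr16g0520811 (chromosome 16, 136928532 to 136932509, plus strand) was called in control plants. First-named lines had 10.3, 11.7, 18.8 and 17.0 CPM there, against 0.0494, 0.190, 0.163 and 0.279 CPM in second-named lines, a log2 difference of 6.45 (SE 0.51, edgeR adjusted p = 0.0392). Stressed plants were as far apart, with 18.5 ± 6.47 CPM in first-named lines and 0.151 ± 0.127 CPM in second-named lines (SD, n = 4 lines each), and a log2 difference of 6.89 that did not pass the threshold (SE 0.78, edgeR adjusted p = 0.0829). It was called in 6 of 24 alternative settings, and with the doubted library of SF326 put back the difference was 3.10 (edgeR adjusted p = 1). Hybrids averaged 15.3 CPM in stressed plants, where the plants labelled SF009_SF279 were again the lowest, with 0.247 CPM, and 13.2 CPM in control plants. It is named because only 4 genes were called in control plants, not by the rule for named genes.

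HanXRQChr17g0538311, a long plus-strand model of 74312 bp (chromosome 17, 16787648 to 16861959), was the 1 gene called lower in first-named lines. Control plants had 2.30, 2.26, 1.38 and 1.85 CPM in first-named lines, against 52.9, 36.8, 24.8 and 24.2 CPM in second-named lines, a log2 difference of -4.14 (SE 0.34, edgeR adjusted p = 0.0392). Stressed plants had 2.45, 2.26, 1.97 and 1.58 CPM in first-named lines, against 25.96, 24.7, 9.96 and 17.7 CPM in second-named lines, a log2 difference of -3.24 (SE 0.34, edgeR adjusted p = 0.0542). The sides did not overlap at either level. Drought lowered the gene in second-named lines (log2 change -0.84, edgeR adjusted p = 0.0165), and in first-named lines the change was 0.08 (edgeR adjusted p = 0.783). The difference between these responses was not called. The hybrids averaged 18.0 CPM in stressed plants and 28.9 CPM in control plants, near the second-named lines.

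**Figure D2:**
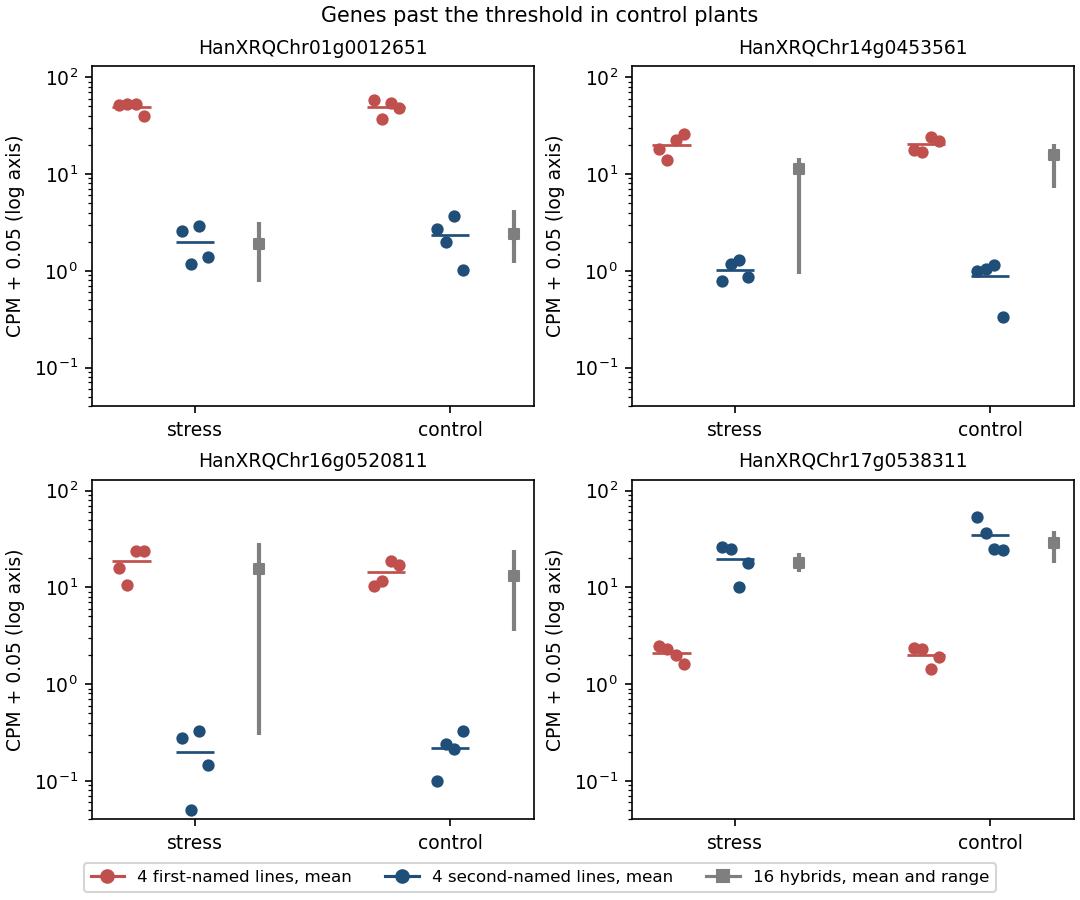
Levels of the 4 genes called in control plants, as CPM + 0.05 on a log axis, in stressed plants (left of each panel) and control plants (right): the 4 first-named lines, the 4 second-named lines, and the mean and range of the 16 hybrids. No line of 1 side overlaps a line of the other in any panel, and the hybrids sit at the level of the second-named lines for HanXRQChr01g0012651 (mean 1.83 CPM under stress) and near the first-named lines for HanXRQChr16g0520811 (15.3 CPM).

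All 4 calls in control plants were close to the threshold. Their adjusted p of 0.0392 passed 0.05 with all 8 lines, and the call of each was lost in 8 to 10 of 24 alternative settings, while the sign held in all of them. Without SF009 none of the 4 was called in control plants.

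The other 5 genes called in stressed plants were all higher in first-named lines. The gene on chromosome 8, described above among the 9, had 77.2, 16.6, 41.4 and 31.6 CPM in stressed plants of first-named lines, against 0, 0, 0.0697 and 0 CPM in those of second-named lines (edgeR adjusted p = 0.0220). In control plants it had 3.98, 3.08, 6.21 and 4.62 CPM in first-named lines, against 0.0494, 0.142, 0 and 0 CPM in second-named lines, and was not called (edgeR adjusted p = 0.384). The gene rose under drought in first-named lines (log2 change 3.05, edgeR adjusted p = 0.00337) and in hybrids (log2 change 3.21, edgeR adjusted p = 2.16e-09). With 1 count in all stressed plants of second-named lines and 4 in their control plants, a response could not be measured there.

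On chromosome 10, a gene at 72755999 to 72759977 had 13.9, 9.39, 14.6 and 15.5 CPM in stressed plants of first-named lines, against 0.456, 0.329, 0.279 and 0.287 CPM in second-named lines. Its log2 difference was 5.28 (SE 0.30), with an edgeR adjusted p of 0.00540, the lowest of all genes. A second gene on that chromosome, at 99446552 to 99451705, had 16.2 ± 5.19 CPM in first-named lines and 0.0174 ± 0.0348 CPM in second-named lines under stress (SD, n = 4 lines each; edgeR adjusted p = 0.0226). The gene on chromosome 13 (174896846 to 174899130) had 11.2 ± 3.17 CPM in first-named lines and 0.0234 ± 0.0270 CPM in second-named lines under stress (SD, n = 4 lines each; edgeR adjusted p = 0.0220). In control plants it was on in SF092, SF109 and SF193 at 3.55 to 5.52 CPM, while SF009 had 0.0366 CPM, within the range of the second-named lines.

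The gene on chromosome 1 (139823136 to 139825951) averaged 9.39 ± 2.12 CPM in stressed plants of first-named lines and 0.431 ± 0.167 CPM in those of second-named lines (SD, n = 4 lines each; edgeR adjusted p = 0.0439). Its neighbour on the same strand ends 50 bases before it and is 1 of the 9 genes on in first-named lines alone. Whether reads of the neighbours were shared between them was not tested. The 9 genes called at either water level lie in 9 windows of 10 Mb on 7 chromosomes, so no window held more than 1 call. By the rule, the windows with the highest share of called genes were those at 70 to 80 Mb and 90 to 100 Mb of chromosome 10 and 70 to 80 Mb of chromosome 1 in stressed plants, and those at 130 to 140 Mb of chromosome 16, 70 to 80 Mb of chromosome 1 and 10 to 20 Mb of chromosome 17 in control plants.

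A wider list was made from the ranges alone. In 164 genes (0.481% of those tested) the 4 values of 1 side did not overlap the 4 of the other in stressed plants or in control plants, in the same direction. Of these, 115 were higher in first-named lines (0.337%) and 49 were lower (0.144%). Here too, how well the reads of each line match the gene models was not tested. In stressed plants alone 743 genes were separated (2.18%), and in control plants alone 716 (2.10%). Both shares lie below 0.0286, the share that lines placed on the sides at random would give where no values tie. The size of these lists thus shows no excess over such a placing. The same lines stand behind both water levels, so the second level is not an independent repeat of the first.

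Separated genes that were higher in first-named lines were unevenly spread over the genome. Chromosome 10 held 28 of the 115, which is 24.3% of them and 1.15% of the 2426 genes tested there. Chromosome 1 came next with 12 genes, or 0.650%, and chromosome 6 had 0 of 1344. Genes lower in first-named lines did not gather on chromosome 10, which held 4 of the 49. Within chromosome 10, 6 of 94 tested genes between 140 and 150 Mb were separated and higher in first-named lines, or 6.38%, the highest share of any of the 306 windows of 10 Mb with at least 20 tested genes. The next windows were 40 to 50 Mb of chromosome 17 with 6 of 133 genes (4.51%) and 170 to 180 Mb of chromosome 13 with 8 of 180 (4.44%), which also holds the called gene of that chromosome and 1 of the 9 exclusive ones. These windows were picked after their values were seen, and neighbouring genes are not independent of each other. The 6 genes of the chromosome 10 window start between positions 146209607 and 146459866. Among them a model ends at 146213084 and the next starts at 146213135, and another ends at 146222410 with the next from 146222461. Whether such neighbours are parts of the same gene was not tested.

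The weight of chromosome 10 depended on the lines. Its share of the genes higher in first-named lines was 14.7% to 16.3% without SF092, SF109, SF193 or SF317. Without SF326 it was 9.09% (38 genes), and without both SF092 and SF326 it was 8.74% (56 genes), beside 7.11% of all tested genes that lie on this chromosome. Of the 115 genes, 27 were also on/off differences between SF092 and SF326. Fewer lines make it easier for a gene to be separated: the count of 164 became 315 to 606 with any 1 line left out, highest without SF326, and 1085 without SF092 and SF326.

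**Figure D3:**
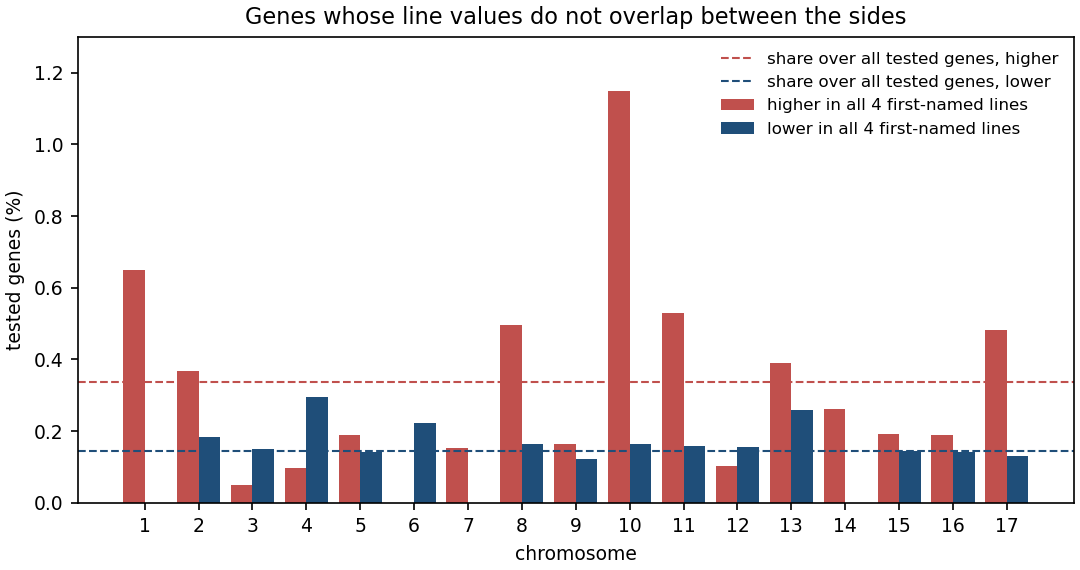
Share of the tested genes of each chromosome, in percent, whose values in the 4 lines of 1 side do not overlap those of the other side in stress and in control; bars give genes higher and lower in first-named lines, and dashed lines the share over all tested genes. Chromosome 10 stands out with 1.15% higher, against 0.337% over all genes, while the lower genes are spread more evenly.

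Placed on a scale where the second-named mean is 0 and the first-named mean is 1, the hybrids lay between the sides for most separated genes. The genes were chosen by the same line values that set this scale, which by itself favours a position between its ends. For the 115 genes higher in first-named lines the hybrid mean had a median position of 0.646 (quartiles 0.552 and 0.805). For the 49 lower genes it was 0.445 (quartiles 0.192 and 0.731). Of the 115, 4 lay under 0.1, at the level of the second-named lines or beyond, and 20 over 0.9. Of the 49, 7 lay under 0.1 and 7 over 0.9. HanXRQChr01g0012651 was at -0.00254, HanXRQChr14g0453561 at 0.627, HanXRQChr16g0520811 at 0.855 and HanXRQChr17g0538311 at 0.158.

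Hybrid by hybrid, the median position over the 115 genes ranged from 0.251 to 0.778 in stressed plants and from 0.425 to 0.835 in control plants. The lowest in both was SF009_SF279, whose labels are in doubt. Without its 6 libraries and SF092_SF317 stress replicate 3 the range was 0.554 to 0.778 under stress and 0.519 to 0.835 in control plants. Some of the 115 genes raised that doubt, so the higher low end follows in part from the choice. The median position of the mean over the 15 hybrids was then 0.666 for the higher genes and 0.424 for the lower ones. Since every hybrid shares its parents with others, no test was made.

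The drought response was compared next, within lines, so that a line's own level drops out. Drought raised 3042 genes and lowered 3386 in the first-named lines (8.92% and 9.93% of genes tested), and raised 1819 and lowered 1900 in the second-named lines (5.33% and 5.57%; edgeR, line as block, adjusted p under 0.05). Scaled by library totals in place of TMM, 5062 rose and 2341 fell in first-named lines, and 4996 rose and 1091 fell in second-named lines, on a scale where the median gene moved by 0.16 and 0.24 (log2). Of the genes that rose in first-named lines, 46.8% were also called as risen in second-named lines, and of those that rose in second-named lines, 78.3% were called in first-named lines (1424 genes). The same held for 1586 fallen genes, 46.8% of those in first-named and 83.5% of those in second-named lines. Called genes moved in opposite directions in 0 cases.

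No gene had a response that differed between the sides by the test of that difference. The interaction of side and water supply called 0 of 34111 genes (edgeR adjusted p under 0.05, lowest adjusted p = 1), DESeq2 and limma-trend also called 0, and 696 genes (2.04%) had an unadjusted p under 0.05. Without SF092 edgeR called 1. The larger number of calls within first-named lines is thus not a tested difference between the sides, and the counts moved with single lines. In first-named lines 2256 genes were called without SF009, 2286 without SF109, 3819 without SF193 and 343 without SF009 and SF092. In second-named lines 630 were called without SF279, 960 without SF317 and 1172 without SF326.

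The size of the response varied more from line to line than from side to side. It was measured as the slope of a line's log2 changes on the mean change of the 16 hybrids over the same genes. A response like that of the hybrids gives 1, and a lower slope can mean smaller changes or changes in other genes. The slopes were 0.962 in SF009, 0.520 in SF092, 0.593 in SF109 and 0.465 in SF193, against 0.638 in SF279, 0.538 in SF317, 0.522 in SF326 and 0.231 in SF342. SF009 had the highest slope and SF342 the lowest, and the other 6 lines of both sides lay together between 0.465 and 0.638. The means were 0.635 ± 0.224 in first-named and 0.482 ± 0.175 in second-named lines (SD, n = 4 lines each), a difference of 0.153 that did not pass the test (two-sided exact permutation test, p = 0.486, the smallest possible being 0.0286). The difference was 0.0439 without SF009 and 0.0691 without SF342, whose slope rests on 1 control plant. Without replicate 3 of every line, which also takes SF342 out, it was -0.0207.

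Plants of a line differed as widely. Scored singly, the 12 stressed first-named plants ran from 0.166 to 1.05 with a median of 0.700, and the 11 second-named plants from 0.103 to 1.09 with a median of 0.479. SF193 held plants at 0.166 and 0.874 and SF279 plants at 0.183 and 1.09. All 3 plants of SF009 scored at least 0.870 and all 3 of SF342 at most 0.344. Each plant was scored against the control mean of its line, so the scores of a line share a baseline and are not independent. In SF342 that baseline is 1 control plant.

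**Figure D4:**
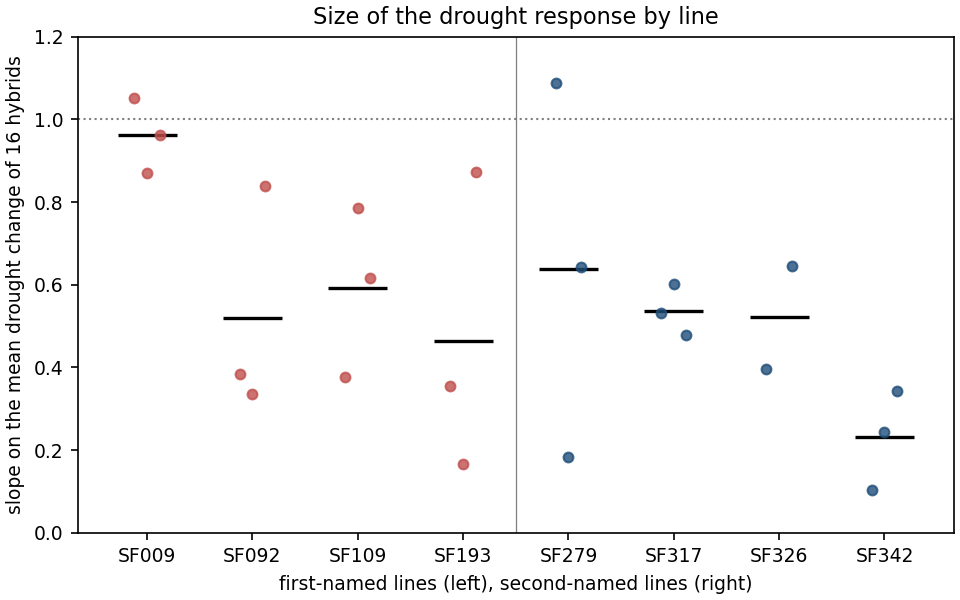
Size of the drought response in each line, as the slope of its log2 changes on the mean change of the 16 hybrids; points are stressed plants and bars are the slopes of the line means, with first-named lines left of second-named lines. SF009 is highest at 0.962 and SF342 lowest at 0.231, and the plants of both sides cover the same range.

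Genes known from the hybrids to respond moved in the same direction on both sides, by less. Of the tested genes 13311 rose (39.0%) and 13001 fell (38.1%) under drought in the hybrids, whose plants enter no comparison of the lines, and whose own changes chose these lists. The risen genes had a median log2 change of 0.44 in first-named lines, 0.36 in second-named lines and 0.61 in the hybrids. The fallen genes had medians of -0.52, -0.40 and -0.95 in the same order. Over all tested genes the medians were 0.06 in first-named lines, 0.06 in second-named lines and 0.02 in the hybrids. The line values of the sides did not overlap in 0.503% of the risen and 0.362% of the fallen genes, beside 0.481% of all tested genes.

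Shares of organelle RNA were compared by side as well, since a seed parent alone passes on its organelles. Mitochondrial genes took 1.21% ± 0.0880 of all counts in stressed first-named lines and 1.21% ± 0.0952 in stressed second-named lines, and 1.27% ± 0.516 and 1.06% ± 0.0549 in control plants (SD, n = 4 lines each). The excess in control plants came from SF109, at 2.04%, and without its control replicate 2 the difference was -0.0449 percentage points in place of 0.207. Plastid genes took 0.146% ± 0.0244 in stressed first-named lines and 0.161% ± 0.0386 in stressed second-named lines, and 0.185% ± 0.0455 and 0.201% ± 0.0622 in control plants (SD, n = 4 lines each). None of the 6 shares compared, which included that of genes marked as ribosomal RNA, passed the test (two-sided exact permutation test, lowest adjusted p = 0.684). The test could hardly pass: with 4 lines a side the smallest p is 0.0286, which adjusted over 6 shares is 0.171 where only 1 share reaches it. Gene by gene, 0 of 25 mitochondrial and 0 of 3 plastid genes were called at either water level (edgeR; at an unadjusted p under 0.05, 1 mitochondrial and 1 plastid gene in stressed plants, and 3 and 1 in control plants).

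A plastid gene model, HanXRQCPg0579741, was singled out after its values were seen. Over the plants of a line it had 3.53 to 19.2 CPM in SF009, 1.93 to 10.2 in SF109 and 2.72 to 7.22 in SF193, but 0 to 1.41 CPM in SF092. In second-named lines it had 0 to 0.850 CPM in SF279, 0 to 0.861 in SF317, 0 to 0.763 in SF326 and 0.129 to 1.12 in SF342. The plants of SF009, SF109 and SF193 thus all lay above those of the second-named lines, and the plants of SF092 overlapped them. In the 96 hybrid plants the gene had 0 to 1.98 CPM, and the means of the 16 hybrids ran from 0.177 to 0.899 CPM, so no hybrid reached the lowest plant of the 3 high lines on average. SF092 is also the first-named line whose on/off genes resemble those of SF326. The gene has few counts, 557 in SF009 and 11 to 19 in each second-named line, and reads from plastid copies in the nuclear genome cannot be told apart from it in these tables.

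**Figure D5:**
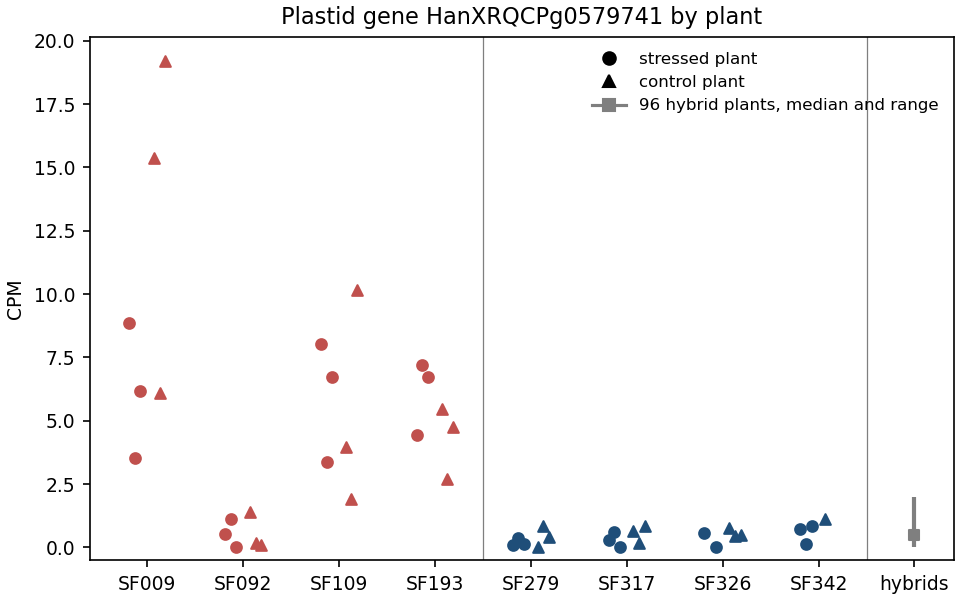
CPM of the plastid gene HanXRQCPg0579741 in every plant of the 8 lines, with stressed plants as circles and control plants as triangles, and the median and range of the 96 hybrid plants. SF009, SF109 and SF193 lie at 1.93 CPM or more in every plant, while SF092, the second-named lines and the hybrids stay at or under 1.98 CPM.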

How the data were processed

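RNA-seq of leaves from 8 lines and 16 hybrids was analysed. The authors deposited whole-number read counts per gene; per the file headers the table also gives gene positions. A second deposited table holds CPM values after filtering (30831 genes, 140 libraries) and served only to choose the genes and libraries of 1 alternative fit. Per the labels' protocols, oriented TruSeq libraries were sequenced as paired reads on a HiSeq. Per the submitters' processing notes, R 3.3.3 and edgeR 3.16.5 were among their tools. The aligner, counting tool and build were not given in the sources used here. Of 58050 gene identifiers, 0 matched 83308 RefSeq genes of sunflower, so no gene has a name here. Whether near-identical copies share reads was not tested.

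Of the genes, 17 marked as ribosomal RNA were left out. Counts were summed per line and water level, filterByExpr (edgeR 4.0.16, R 4.3.3; minimum count 10) over side and water kept 34111 genes, and TMM scaled them. Sides were compared with the robust quasi-likelihood F-test of edgeR, Benjamini-Hochberg adjusted p under 0.05, separately in stressed and control plants; the drought response was fitted on 16 columns with line as block. Standard errors are the log2 difference over the square root of F. Single values were compared with exact permutation tests of 4 lines against 4 lines. limma 3.58.1 and DESeq2 1.42.0 served as alternatives. The edgeR steps were tested on simulated data, and the limma and DESeq2 steps were not. Libraries had no molecular identifiers, so depth gives counting error only; the tests rest on the spread between lines. No pair of libraries in a group was alike within sampling noise (lowest chi-square per degree of freedom 4.50 over 43 pairs).

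The members, lists and tests were chosen with earlier results of these data known. Named by rule were the 2 largest rises and 2 largest falls among genes called at both water levels without overlap of the sides, or, where fewer qualified, called at 1 level; 2 rises and 1 fall qualified, and 0 genes for the drought response. SF326 stress replicate 3 was left out.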

Additional observations from a re-analysis of the deposited data

Results flagged for a closer look

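In 30 groups of 4 lines examined, 3 held a line that stood apart from the other 3 by more than Dixon's 95% critical value, and chance gives about 1 such group in 20. SF109 had 2.04% of its counts in control plants on the mitochondrial sequence, against 0.963% to 1.09% in the other first-named lines. SF109 also had 0.0565% of its control counts in genes marked as ribosomal RNA, against 7.61e-05% to 0.000303% in the other first-named lines. For HanXRQChr01g0012651, SF193 had 39.8 CPM in stressed plants, against 51.3 to 52.4 CPM in the other first-named lines.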

How the results depend on the processing

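Counts of genes past the threshold were the results that moved most, and the causes were not tested. For level differences in stressed plants (7 genes) DESeq2 gave 216, limma-trend 25, plants as replicates 6180, SF326 stress replicate 3 put back 1, and the lines SF092 and SF326 left out 1. In control plants (4 genes) these were 154, 14 and 5186, with 13 without SF092 and SF326, and 1 without SF009 and SF092, an alternative chosen after seeing the data. Leaving out 1 line or replicate number gave 0 to 22 genes in stressed plants, 0 to 8 in control plants, 0 to 1 for the response difference, 2063 to 7585 for the first-named and 630 to 5248 for the second-named response. The first-named response (6428) had 2744 genes without SF092 and SF326 and 343 without SF009 and SF092, and the second-named (3719) had 6087 with library totals, 6055 with DESeq2 and 658 without SF092 and SF326. Separated genes (164) numbered 1085 without SF092 and SF326, 1320 without SF009 and SF092, and 124 to 606 with 1 line or number left out. Genes on in 1 side only (9) numbered 57 without SF092 and SF326, 80 without SF009 and SF092, and 9 to 32 with 1 line left out, alternatives also chosen after seeing the data. The share on chromosome 10 (24.3%) was 8.74% and 14.0% in those pairs of lines left out, and 9.09% to 24.1% otherwise.

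The slope difference (0.153) ranged from -0.0207 to 0.209. The differences in share, in percentage points, ranged from -0.0813 to 0.368 for mitochondrial counts in control plants, which were -0.0449 without SF109 control replicate 2 and -0.0297 with the median of plants. They ranged from -0.0485 to 0.0323 in stressed plants, 0.0136 with the median of plants. Plastid counts in control plants ran from -0.0416 to 0.00915, and ribosomal RNA from 1.23e-05 to 0.0213 in control plants and from -0.00102 to -0.000453 in stressed plants, where 1 omission each (SF193, SF279) passed an exact permutation p of 0.05.

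The replicate numbers come from the labels, which name no shared batch or day, and were not taken as pairs. Same-numbered plants of other lines correlated by a mean of -0.0124 (-0.534 to 0.539). Same-numbered stressed and control plants of 1 line correlated by a mean of 0.198 (20 pairs, -0.186 to 0.402), against -0.0962 for other numbers (40 pairs), so not every pair was above 0.1. With the replicate block, limma-trend called 25 genes in stressed plants, 15 in control plants, 0 for the response difference, and 8603 and 5555 for the responses. Depth limited SF342 control, which has 1 plant.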
